A study of Homo sapiens with 6 samples.

Results

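The alpha globin gene cluster and AHSP were followed as 6 genes, HBZ, HBA2, HBA1, HBM, HBQ1 and AHSP, out of 33367 genes that could be named in the tables. They were chosen by name. RNA was sequenced from K562, an established human erythroleukaemia cell line that makes globin RNA, in clones carrying a short hairpin RNA (shRNA) switched on by doxycycline. All clones were kept in puromycin at 2 µg/ml and the label of each library reads day 4. The NT clone carried a non-targeting shRNA, and clones c1 and c2 carried an shRNA against CDAN1, the gene mutated in a congenital dyserythropoietic anaemia. Each clone gave 1 library without doxycycline (uninduced) and 1 library with doxycycline at 1 µg/ml (induced). Knockdown therefore had 2 libraries (induced c1 and c2), and the controls were uninduced c1, uninduced c2, and NT in both states. Each construct is represented by clones of 1 cell line, and each clone and state by 1 library, and nothing in the labels says that they came from separate cultures. The p-values given here therefore reflect library-to-library spread, which may be technical.

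Haemoglobin is built from alpha-type and beta-type chains, each encoded by a gene cluster whose members are used in turn during development. In the alpha cluster HBZ encodes the embryonic zeta chain, while HBA2 and HBA1 encode the same fetal and adult alpha chain. HBM and HBQ1 encode the mu and theta globin chains, which are minor. AHSP encodes the alpha haemoglobin stabilising protein, an erythroid chaperone that binds free alpha chains before they join beta-type chains.

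On GRCh38 (GENCODE 29) the cluster lies on the plus strand of chromosome 16 in the order HBZ (152687 to 154503), HBM (153892 to 166768), HBA2 (172876 to 173710), HBA1 (176680 to 177522) and HBQ1 (180453 to 181181). AHSP lies on the plus strand of the same chromosome from 31527864 to 31528803. The annotated span of HBM reaches back into HBZ because a noncoding HBM transcript starts there.

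The coding sequences show which of these genes the reads can tell apart. The first 120 coding bases are given from GENCODE 29 transcripts, with the start codon first. In the line for HBA1 and HBA2, capitals mark the 49 bases (coding positions 48 to 96) that a short transcript of each gene lacks. In the lines for HBZ and HBQ1, capitals mark bases that differ from HBA1 at the same position, 52 in HBZ and 46 in HBQ1.
HBA1 and HBA2 full-length: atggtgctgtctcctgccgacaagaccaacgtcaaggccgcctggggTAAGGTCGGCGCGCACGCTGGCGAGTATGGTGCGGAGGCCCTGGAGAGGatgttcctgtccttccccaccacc
HBZ: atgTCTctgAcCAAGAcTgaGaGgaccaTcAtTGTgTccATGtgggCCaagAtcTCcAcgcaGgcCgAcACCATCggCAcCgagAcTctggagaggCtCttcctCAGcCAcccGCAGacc
HBQ1: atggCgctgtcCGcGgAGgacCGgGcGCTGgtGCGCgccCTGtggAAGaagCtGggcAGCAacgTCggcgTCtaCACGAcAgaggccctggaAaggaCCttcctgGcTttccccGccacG

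Over all 429 coding bases HBA1 and HBA2 were identical, and HBZ matched HBA1 at 68.5% of aligned bases. HBQ1 matched HBA1 at 73.0% and HBM at 61.8%. No word of 31 bases was shared between the HBZ transcript and the full-length or short transcripts of HBA1 and HBA2. The full-length HBA2 transcript held 82.3% of the 31-base words of the full-length HBA1 transcript. The 2 differed after the stop codon, where 91 of 111 aligned bases matched. Reads from the shared part cannot be assigned to HBA1 or HBA2 by sequence, so the split between them is uncertain and their sum is given as well.

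HBA1 had the highest level of the 6 genes in every library, followed by HBZ and then HBA2. Levels compared between genes are in TPM, the deposited length-scaled transcript abundance, summed per gene. HBA1 stood at 7550 TPM in uninduced NT, 8488 in induced NT, 7572 in uninduced c1, 8637 in induced c1, 4350 in uninduced c2 and 5137 in induced c2. It ranked between 9 and 16 among all named genes by TPM. Both c2 libraries lay below all others.

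HBZ, the embryonic gene, stood at 3705 TPM in uninduced NT, 4038 in induced NT, 3841 in uninduced c1, 4633 in induced c1, 1933 in uninduced c2 and 2381 in induced c2. Its rank among genes ran from 16 in induced c1 to 69 in uninduced c2. HBA2 stood at 2678 TPM in uninduced NT, 3059 in induced NT, 2184 in uninduced c1, 2717 in induced c1, 1020 in uninduced c2 and 1336 in induced c2. For both genes the c2 libraries were again the lowest, and in each clone the induced library was the higher of the pair.

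HBQ1, the theta globin gene, was far less abundant, at 62.4 TPM in uninduced NT, 66.1 in induced NT, 53.3 in uninduced c1, 58.1 in induced c1, 50.1 in uninduced c2 and 55.4 in induced c2. The NT libraries were the highest, and those of c1 and c2 overlapped. AHSP stood at 48.9 TPM in uninduced NT, 48.4 in induced NT, 7.94 in uninduced c1, 7.09 in induced c1, 53.5 in uninduced c2 and 40.9 in induced c2. Here the c1 libraries stood far below the other 4, and the c2 libraries did not. HBQ1 stood above AHSP in every library but uninduced c2.

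HBM was close to the limit of detection. It held between 2.05 and 9.26 estimated reads per library, all of them given to the noncoding transcript, while its coding transcript was listed at 0 in all 6 libraries. That noncoding transcript shares 31.1% of its 31-base words with HBZ, and the part of HBZ reads in its values was not tested. HBM did not pass the filter on low counts, so the tests cover 5 of the 6 genes. The pseudogene HBZP1, a copy of HBZ in the cluster, held between 5.68 and 11.7 estimated reads in the NT and c1 libraries and was listed at 0 in both c2 libraries.

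**Figure D1:**
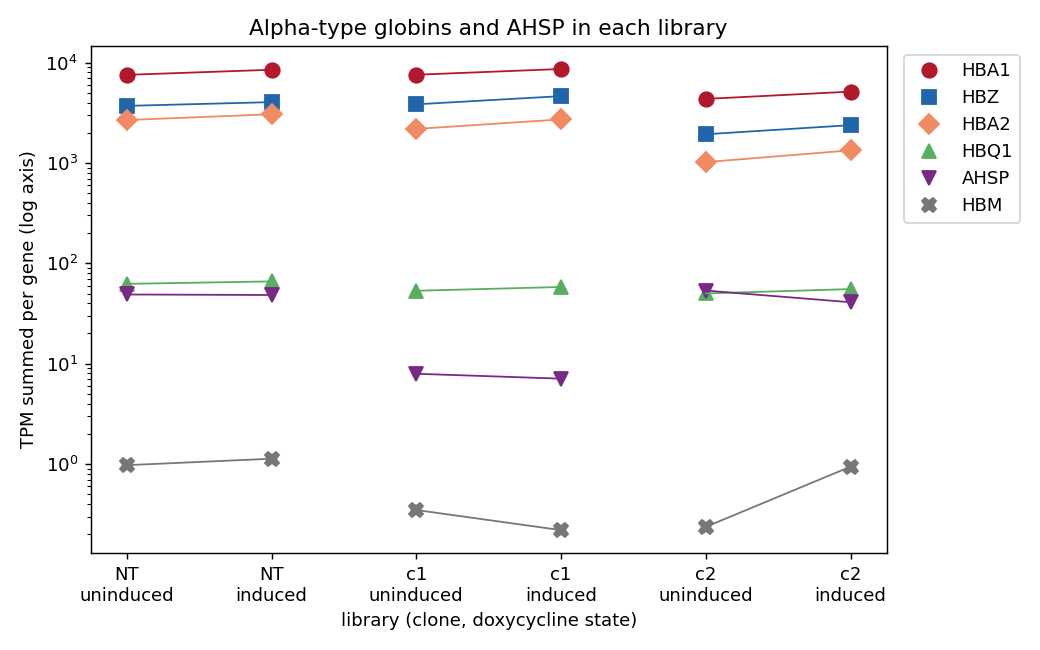
TPM summed per gene (log axis) for the 6 genes in the 6 libraries, with a line joining the uninduced and induced library of each clone. HBA1, HBZ and HBA2 are lowest in c2 (4350, 1933 and 1020 TPM when uninduced), while AHSP is lowest in c1 (7.94 and 7.09 TPM).

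The 6 libraries held between 28318555 and 32352246 estimated reads, and the members between 53 reads (AHSP in induced c1) and 77200 reads (HBA1 in induced c1), HBM apart. CDAN1, the targeted gene, stood at 19.2 TPM in uninduced NT, 22.4 in induced NT, 10.5 in uninduced c1, 6.80 in induced c1, 16.8 in uninduced c2 and 9.25 in induced c2. CPM are counts per total estimated reads in the genes that passed the filter on low counts, scaled by TMM normalization. In CPM, induced c1 held 45.8% of its uninduced CDAN1 level, induced c2 53.7% and induced NT 112.3%. The c1 libraries lie closer together in TPM than in CPM. Uninduced c1, a control, thus had less CDAN1 than uninduced c2 or NT. All 15 erythroid markers reached 1 TPM in some library, with summed levels of 1131 to 1396 TPM. KEL did so only in uninduced NT (5.99 TPM) and was listed at 0 in all other libraries. EPB42 stayed under 1 TPM in both c1 libraries and in uninduced c2. Among lymphocyte markers CD3E, MS4A1 and CD79A stayed under 1 TPM, and CD3D ranged from 21.5 to 68.5 TPM.

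The largest differences in these genes were between clones, with HBZ, HBA1 and HBA2 low in c2 and AHSP low in c1. Between c1 and NT, HBZ and HBA1 had log2 fold changes of only 0.12 and 0.02. The induced minus uninduced log2 differences within c1 were larger, at 0.25 for HBZ and 0.16 for HBA1. In clone c2, against c1 and NT together, HBZ, HBA1 and HBA2 were lower and AHSP was higher, the last because AHSP was low in c1. Tests used edgeR's quasi-likelihood test with Benjamini-Hochberg adjustment over 14075 genes, with clone and doxycycline as terms and the libraries of a clone standing as its replicates. HBZ had a log2 fold change of −0.98 ± 0.06 (SE; adjusted p = 3.74e-05, edgeR), in 2 libraries against 4. HBA1 had −0.83 ± 0.05 (adjusted p = 3.04e-05, edgeR) and HBA2 −1.30 ± 0.06 (adjusted p = 1.31e-05, edgeR). HBQ1 stood at −0.25 ± 0.09 and did not pass the test (adjusted p = 0.0984, edgeR). The c2 libraries lay below all 4 others for HBZ, HBA1 and HBA2, and how many of all genes did so was not counted.

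The 3 of 5 tested members called lower in c2 compare with 8.99% of all genes called lower, and the 1 member called higher with 13.8% called higher. Without uninduced c2 369 genes were called lower in place of 1266, and without induced c2 355. HBZ, HBA1, HBA2 and AHSP were called in each of the 6 fits that left out 1 library. Set against NT alone, a contrast chosen after the values were seen, c2 had −0.92 ± 0.07 for HBZ, −0.83 ± 0.05 for HBA1 and −1.43 ± 0.07 for HBA2. All of these were called (adjusted p of at most 0.00013, edgeR), where 9.21% of genes were called lower. HBQ1 had −0.35 ± 0.11 against NT (adjusted p = 0.0549, edgeR).

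AHSP in c2 was not told apart from AHSP in NT. Its log2 fold change was −0.12 ± 0.14 (adjusted p = 0.607, edgeR), with a 95% interval from −0.45 to 0.21. The low alpha-type globin RNA of c2 was thus measured beside AHSP RNA near the NT level. AHSP TPM was 0.350% of alpha-type globin TPM in uninduced NT and 0.309% in induced NT, 0.0582% and 0.0442% in c1, and 0.728% and 0.460% in c2. These 3 pairs do not overlap, with c2 highest and c1 lowest.

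In clone c1 AHSP and HBA2 were called lower than in NT, and AHSP by far the more. AHSP had a log2 fold change of −2.68 ± 0.16 (adjusted p = 6.68e-05, edgeR), which is a fold change of 0.156, from 53 to 57 estimated reads in the c1 libraries and 312 to 328 in the NT libraries. It was called in all 6 fits that left out 1 library, with values from −2.79 to −2.56. HBA1 in c1 had 0.02 ± 0.05 against NT (95% interval −0.11 to 0.14) and HBZ 0.12 ± 0.07 (−0.03 to 0.27), and neither passed the test. HBQ1 had −0.20 ± 0.11 (−0.45 to 0.05).

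HBA2 was lower in c1 than in NT, at −0.26 ± 0.07 (adjusted p = 0.0297, edgeR). That call ended without uninduced NT (−0.15, adjusted p = 0.255, edgeR), without uninduced c1 (−0.25, 0.112) and without induced c1 (−0.27, 0.0786). It also ended with transcript length as an offset (0.0753) and without the doxycycline term (0.252). Of 5 tested members 2 were called lower in c1, where 14% of all genes were called lower and 13.8% higher. Without uninduced NT 1251 genes were called lower in place of 1969, and without uninduced c1 1309.

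**Figure D2:**
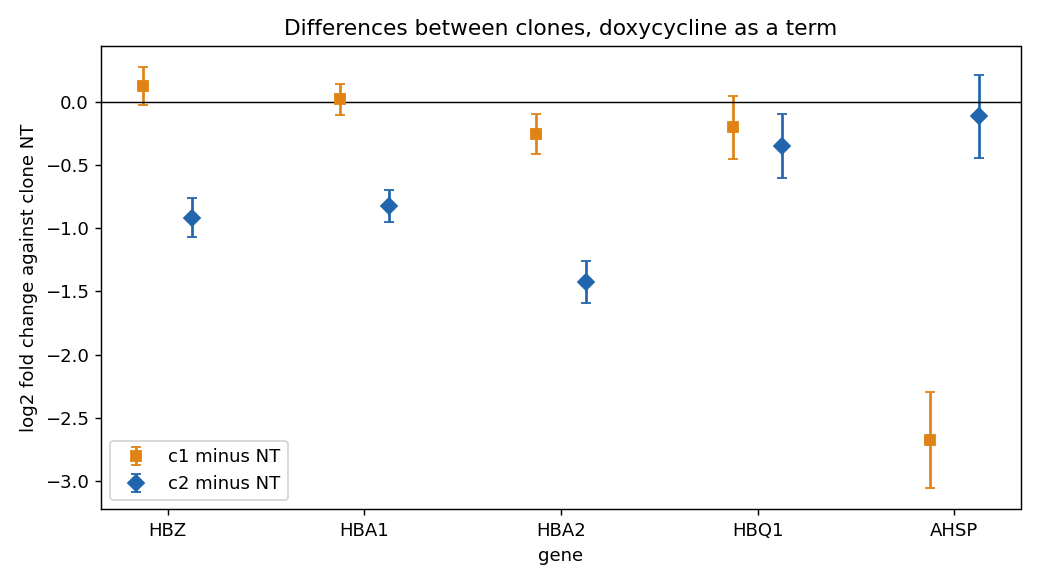
Log2 fold change of c1 (squares) and c2 (diamonds) against NT for the 5 tested genes, from edgeR with doxycycline as a term, with 95% intervals. AHSP in c1 lies at −2.68, and HBZ, HBA1 and HBA2 in c2 at −0.92, −0.83 and −1.43.

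Other lineage genes moved with the clones. Of 11 megakaryocyte markers 10 were tested. In c2 against c1 and NT, 9 were called higher and 1 lower (median log2 2.77, against −0.01 over all genes), and in c1 against NT 7 were called lower and none higher (median −1.72). Against NT alone 7 were higher in c2 and 1 lower (median 1.91). ITGA2B, the platelet integrin subunit, stood at 38.8 and 32.1 CPM in NT, 13.6 and 11.6 in c1, and 154 and 145 in c2. The summed level of this list was 256 to 289 TPM in NT, 166 to 183 in c1 and 290 to 322 in c2, most of it from GP1BB, the marker that was lower in c2. VWF stayed under 1 TPM. The part of a lineage difference between clones in the globin and AHSP values was not tested, and fewer cells making a gene cannot be told apart from less RNA per cell.

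Of 15 erythroid markers 14 were tested. In c2 against c1 and NT 7 were called lower and none higher (median log2 −0.24), among them GYPE, RHAG, SLC4A1, ANK1, TFRC and EPOR. Against NT alone 5 were lower, GYPE, RHCE, SLC4A1, EPB42 and EPOR, while RHAG (−0.11 ± 0.05), ANK1 and TFRC were not called. In c1 against NT 4 were called higher (among them GYPE, RHAG and ANK1) and 4 lower (RHCE, SLC4A1, EPB42 and CA1). EPOR, the erythropoietin receptor, had −0.71 ± 0.08 in c2, and EPB42, a protein of the red cell membrane, −2.78 ± 0.32 in c1. Low AHSP in c1 was thus measured beside higher RHAG (0.35 ± 0.05) and lower EPB42, so the erythroid list did not move one way. Of 7 granulocyte and monocyte markers 4 were tested. In c1 against NT 1 was called lower and none higher, while the list median was above 0 (log2 0.39). CD68, a monocyte marker, was lower in c1 than in NT (−1.76 ± 0.14). In c2 CD68 had 0.64 ± 0.11 against c1 and NT together, but −0.24 ± 0.13 against NT alone, which was not called. KIT and MEIS1, markers of progenitors, were higher in c2 (0.95 ± 0.18 and 1.16 ± 0.10), and CD3D was lower there (−1.11 ± 0.13).

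The neighbours of the cluster on chromosome 16 gave a milder picture. Of 11 listed genes 10 were tested, and in c2 against c1 and NT 4 were called lower and none higher (median log2 −0.21). RHBDF1 had −0.60 ± 0.15, NPRL3, whose introns hold the main distal enhancers of the alpha globin genes, −0.53 ± 0.16, LUC7L −0.34 ± 0.06 and FAM234A −0.31 ± 0.06. Against NT alone 3 of these were called, without NPRL3 (−0.60 ± 0.18, adjusted p = 0.0508, edgeR). In c1 against NT none of the 10 was called. Every one of these 4 changes was smaller in size than that of HBZ, HBA1 or HBA2 in c2, though the difference between neighbours and members was not tested.

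Among 20 listed regulators of the globin genes 19 were tested. In c2 against c1 and NT 5 were called lower and 1 higher. KLF1, an erythroid activator of globin genes and of AHSP, had −0.30 ± 0.06, LDB1, which joins enhancers to promoters, −0.28 ± 0.04, and NFE2, which binds the globin enhancers, −0.23 ± 0.04. MYB had −0.18 ± 0.05, MBD3 −0.23 ± 0.06 and GFI1B, an erythroid and megakaryocyte repressor, 0.68 ± 0.18. Against NT alone 2 were higher in c2 (ZFPM1 and GFI1B) and 6 lower (KLF1, LDB1, NFE2, ZBTB7A, MYB and MBD3). In c1 against NT 3 were called higher (ZFPM1, TFCP2 and CHD4) and 4 lower (KLF1, TAL1, ZBTB7A and MYB). KLF1 had −0.26 ± 0.07 in c1, the clone in which AHSP was low. It was also low in c2, where AHSP was near the NT level. KLF1 stood at 167 and 192 TPM in NT, 131 and 169 in c1, and 136 and 142 in c2. The part of KLF1 in the AHSP values was not tested. The median of this list in c2 was −0.01, the same as over all genes.

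Of 7 genes acting on globin RNA or its translation, IGF2BP1 was called higher in c2 (0.22 ± 0.05), and EIF2AK1, IGF2BP1 and LIN28B were called higher in c1. LIN28B, an RNA-binding protein of fetal cells, had 0.39 ± 0.06 in c1. EIF2AK1, the haem-regulated kinase that holds back globin translation, had 0.19 ± 0.05 there in counts, but in TPM it stood lower in c1 (123 and 136) than in NT (138 and 151), so its direction turns with the scale. PCBP1 and PCBP2, which bind and stabilise alpha globin RNA, were called in neither comparison.

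Among 8 enzymes of haem synthesis 4 were called lower in c2 and none higher. ALAS2, the first erythroid enzyme of the pathway, had −0.65 ± 0.08, PPOX −0.37 ± 0.10 and FECH, which inserts the iron, −0.21 ± 0.06. Against NT alone 2 were lower, among them PPOX (−0.64 ± 0.11), while ALAS2 had −0.17 ± 0.09 and FECH −0.04 ± 0.06 and were not called. Both were higher in c1 than in NT. In c1 against NT 3 were called higher, ALAS2 (0.96 ± 0.09), ALAD (0.39 ± 0.10) and FECH (0.34 ± 0.06), and 2 lower, among them PPOX (−0.53 ± 0.11).

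The balance of alpha-type to beta-type globin RNA differed between clones. Summed over the listed genes, alpha-type RNA was 1.40% of all TPM in uninduced NT, 1.57% in induced NT, 1.37% and 1.60% in c1, and 0.735% and 0.891% in c2. The ratio of alpha-type to beta-type TPM was 0.543 and 0.557 in NT, 0.521 and 0.604 in c1, and 0.341 and 0.379 in c2, uninduced first. Both c2 values lay below the other 4. The abundant beta-type genes were also lower in c2 against c1 and NT, by smaller amounts. HBG1 and HBG2, the fetal gamma globins, had −0.22 ± 0.04 and −0.27 ± 0.04, and the embryonic HBE1 −0.46 ± 0.06, while HBB and HBD, both scarce at no more than 4.91 and 41.7 TPM, were called higher. Against NT alone HBD kept its call (0.58 ± 0.17), whereas HBB had −0.06 ± 0.38 and was not called. HBB stood at 0.505 and 0.577 TPM in c1. This adult beta globin was lower in c1 than in NT (−2.90 ± 0.48). Its c1 level was close to the limit of detection, at 0.177 and 0.198 CPM, beside 1.21 and 1.65 CPM in NT, so the size of this difference rests on few reads.

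The embryonic to adult ratio moved far less than the levels did. It was taken as HBZ over HBA1 plus HBA2, in estimated reads per effective base of the main coding transcript. It was 0.369 in uninduced NT (95% interval 0.365 to 0.374) and 0.357 in induced NT (0.354 to 0.361). In c1 it was 0.402 uninduced (0.398 to 0.406) and 0.418 induced (0.414 to 0.422), and in c2 0.369 (0.363 to 0.374) and 0.377 (0.372 to 0.382). HBZ therefore made up between 26.3% and 29.5% of the HBZ, HBA1 and HBA2 transcripts of a library, and the c1 libraries were the highest. The intervals cover counting error only.

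Knockdown did not separate from the controls in this ratio. The 2 knockdown libraries averaged 0.397 ± 0.029 (SD, n = 2) and the controls 0.374 ± 0.019 (SD, n = 4). The log2 difference was 0.09 (two-sided exact permutation test, p = 0.267, with 0.0667 the smallest p that 2 against 4 libraries allow). Uninduced c1, a control, was above induced c2, a knockdown library, so the groups overlapped. The difference was 0.011 without induced c1 and 0.16 without induced c2. Within pairs the ratio was higher when induced in c1 and c2 and lower when induced in NT, by less than the gap between c1 and NT.

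Within the adult pair, HBA2 took a different share in each clone. HBA2 over HBA1 in TPM was 0.355 and 0.360 in NT, 0.289 and 0.315 in c1, and 0.234 and 0.260 in c2, so the clones did not overlap. Of the 2 main coding transcripts of HBA2, the full-length one showed this pattern and the short one did not. The full-length HBA2 transcript stood at 25.9% of full-length HBA1 TPM in both NT libraries, at 19.0% and 20.8% in c1, and at 13.0% and 14.7% in c2. The short HBA2 transcript, which lacks the 49 bases in capitals, a length that is no multiple of 3, stood at 9.38% and 10.1% in NT, 9.47% and 10.5% in c1, and 10.3% and 11.1% in c2.

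The short transcript thus kept to a narrow range relative to full-length HBA1 while full-length HBA2 varied, and it was 0.362 to 0.793 times full-length HBA2 in TPM. The short HBA1 transcript held 0.329% to 0.961% of full-length HBA1 TPM. Of its 31-base words the short HBA2 transcript shares 74.3% with full-length HBA1 and 94.2% with full-length HBA2. The part of this overlap in the division of reads was not tested. Full-length HBA2 is 605 bases long in the deposited tables and 576 in GENCODE 29, so the authors used another version of it, whereas full-length HBA1 has 577 bases in both.

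**Figure D3:**
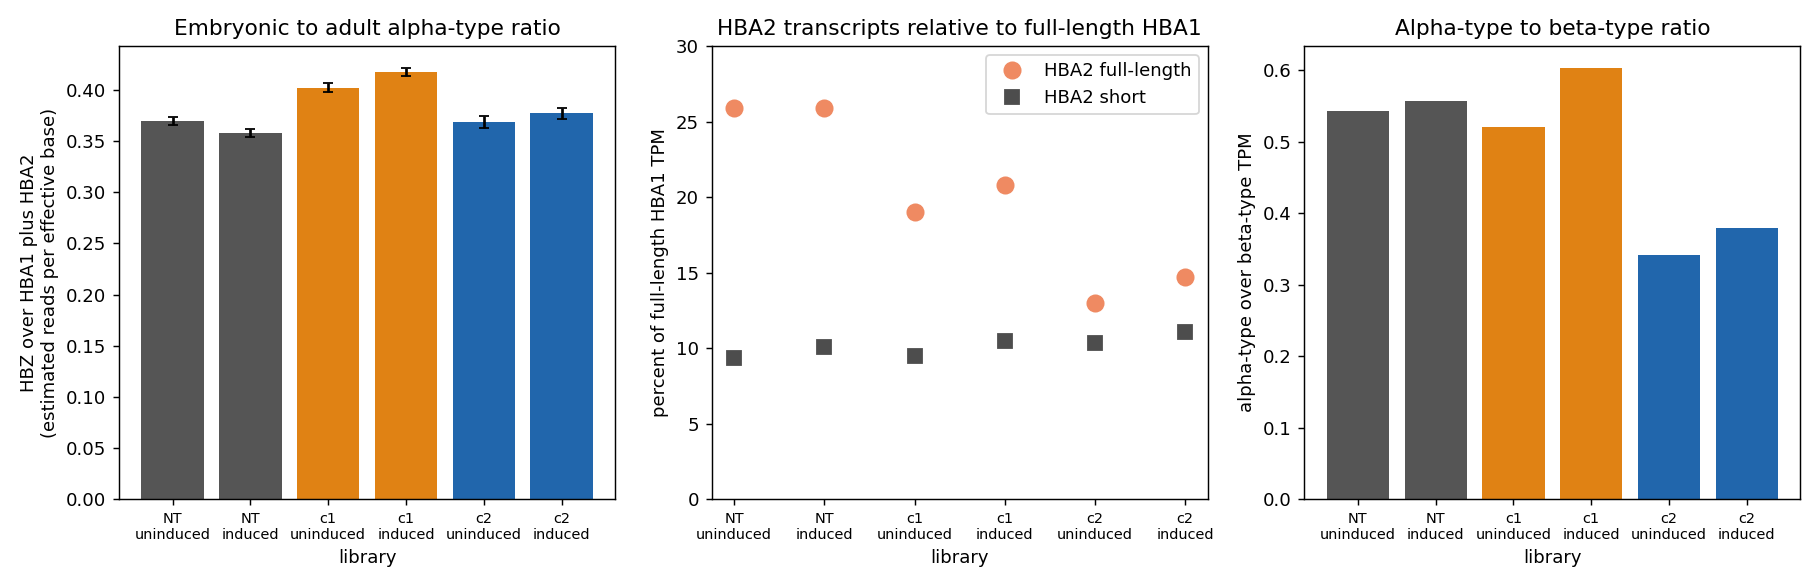
Left, HBZ over HBA1 plus HBA2 per library with 95% counting intervals, between 0.357 and 0.418. Middle, TPM of the full-length and short HBA2 transcripts as a percent of full-length HBA1, with full-length HBA2 at 25.9% in NT and 13.0% in uninduced c2. Right, alpha-type over beta-type TPM, lowest in c2 (0.341 and 0.379). Grey is NT, orange c1 and blue c2.

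Doxycycline went with slightly more alpha-type globin RNA in every clone, the NT clone included. In CPM scaled by TMM, induced minus uninduced, HBZ had a log2 difference of 0.08 in NT (95% counting interval 0.06 to 0.09), 0.25 in c1 (0.24 to 0.27) and 0.32 in c2 (0.30 to 0.34). HBA1 and HBA2 summed had 0.12 in NT (0.11 to 0.13), 0.19 in c1 (0.17 to 0.20) and 0.29 in c2 (0.27 to 0.31). HBQ1 had 0.03, 0.09 and 0.17, with intervals that each included 0. For HBZ, HBA1, HBA2 and HBQ1 alike, c2 had the largest difference and NT the smallest, though the 3 intervals of HBQ1 overlapped. How many of all genes kept this order was not counted. All 4 genes were positive in all 3 clones, as were 17.8% of the genes tested. The rise was not particular to the alpha cluster. The fetal HBG1 had 0.12 in NT, 0.09 in c1 and 0.15 in c2, and HBG2 had 0.07, 0.04 and 0.15. The embryonic HBE1 had 0.06, −0.16 and 0.14. Of the scarce beta-type genes HBD had −0.09, −0.77 and −0.42, and HBB 0.45, 0.17 and −0.51.

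AHSP went the other way from the alpha-type globin genes. Its log2 difference was −0.08 in NT (−0.30 to 0.14), −0.20 in c1 (−0.74 to 0.34) and −0.37 in c2 (−0.59 to −0.15), so only the c2 interval lay below 0. A negative difference in all 3 clones was found for 20% of genes. These comparisons set 1 library against 1 and carry no test of the condition.

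**Figure D4:**
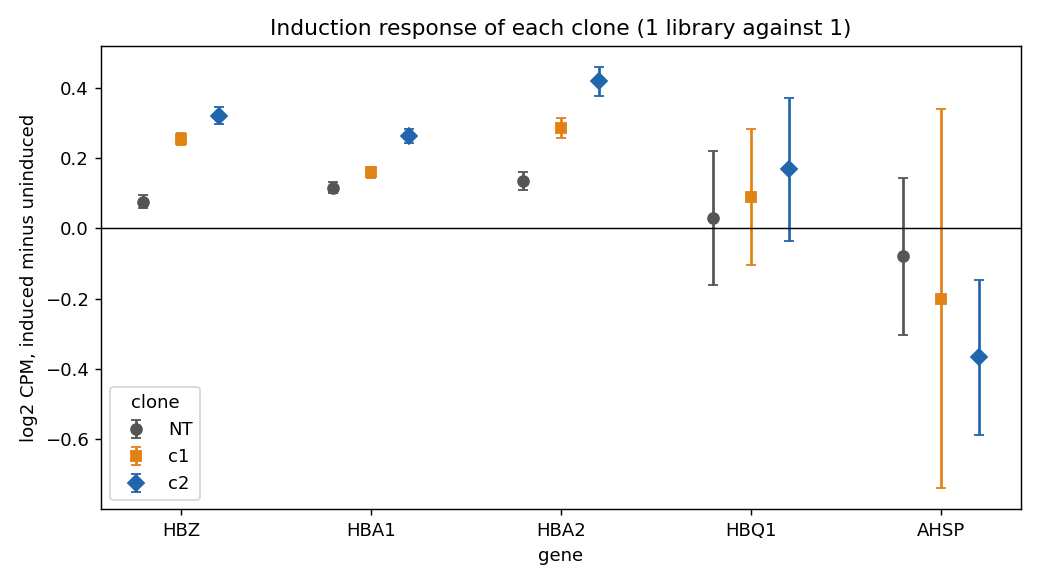
Log2 CPM of the induced minus the uninduced library of each clone, with 95% intervals for counting error only. HBZ lies at 0.08, 0.25 and 0.32 in NT, c1 and c2, and AHSP at −0.08, −0.20 and −0.37.

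Comparing induced with uninduced CDAN1 shRNA clones, no member passed the test without pairing, nor did any other gene (0% of 14075 by edgeR, 207 at an unadjusted p under 0.05, and 2 by DESeq2 and 0 by voom). HBZ stood at 0.28 ± 0.50, HBA1 at 0.20 ± 0.41, HBA2 at 0.33 ± 0.56 and AHSP at −0.34 ± 1.17. The large errors hold the gap between c1 and c2. With the clone as a replicate block HBA2 rose, at 0.35 ± 0.06 (adjusted p = 0.0344, edgeR), in c1 and c2 alike. HBZ had 0.29 ± 0.06 (0.0594), HBA1 0.21 ± 0.06 (0.181), HBQ1 0.13 ± 0.12 (0.687) and AHSP −0.31 ± 0.17 (0.481), all adjusted p by edgeR. In this fit 0.249% of genes were called higher and 0.753% lower, so 1 of 5 members was called.

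The call of HBA2 was not kept in every blocked fit, and HBA1 and HBA2 summed were not called. HBA1 and HBA2 summed had 0.24 ± 0.06 (adjusted p = 0.123, edgeR with the block), and HBA2 with transcript length as an offset had 0.36 ± 0.06 (0.252), a fit in which no gene was called (1319 at an unadjusted p under 0.05). DESeq2 with the same block called HBA2 (adjusted p = 0.00456) and HBZ (0.0102), and voom called HBA2 (0.0442) but not HBZ (0.0617). The blocked edgeR fit without the filter on low counts called both HBA2 (adjusted p = 0.00499) and HBZ (0.0173).

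With the block 1 of 8 haem enzymes was called, ALAS2, at 0.37 ± 0.07 (adjusted p = 0.0484, edgeR). UROS had 0.34 ± 0.08 and PPOX 0.24 ± 0.09. None of the other lists of the globin pathway had a call. MYB had −0.27 ± 0.06, TAL1, an erythroid transcription factor, 0.19 ± 0.06 and KLF1 0.22 ± 0.08, and MPG, a DNA repair gene beside the cluster, 0.33 ± 0.09. Of the other lineage lists RAB27B (−0.86 ± 0.16), LYZ (−0.48 ± 0.07), CD68 (−0.56 ± 0.10) and MECOM (−0.73 ± 0.11) were called lower. The median log2 fold change was 0.11 for the neighbours, 0.02 for the regulators, 0.11 for the haem enzymes and 0.09 for the erythroid markers. It was −0.01 for the 5 beta-type globins, beside −0.01 over all genes in the same fit.

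The response of the CDAN1 shRNA clones was not shown to differ from that of NT for any member. The difference of responses, with the block, was 0.21 ± 0.10 for HBZ (95% interval −0.02 to 0.44), 0.22 ± 0.11 for HBA2 (−0.02 to 0.45) and 0.09 ± 0.10 for HBA1 (−0.14 to 0.33). HBQ1 had 0.10 ± 0.20 and AHSP −0.23 ± 0.27 (−0.82 to 0.37). No member was called, where 0.135% of genes were (19, edgeR with the block). Without the block 0% were called (79 at an unadjusted p under 0.05, 5 by DESeq2 and 0 by voom).

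Knockdown was also set against the 4 controls together. For no member did both knockdown libraries lie on the same side of all controls, and how many of all genes did so was not counted. HBZ had 0.04 ± 0.38, HBA1 −0.04 ± 0.32, HBA2 −0.19 ± 0.49, HBQ1 −0.05 ± 0.17 and AHSP −0.75 ± 0.88 (SE, 2 against 4 libraries). With the clone as a replicate block the values were 0.29 ± 0.06 for HBZ, 0.21 ± 0.06 for HBA1, 0.35 ± 0.07 for HBA2, 0.13 ± 0.11 for HBQ1 and −0.30 ± 0.16 for AHSP, so that HBA1, HBA2 and HBQ1 turned direction. None of these was called either (adjusted p from 0.141 to 0.677, edgeR). Without the block no member was called, and 0% of genes were (322 at an unadjusted p under 0.05, edgeR; 22 by DESeq2, 0 by voom). For each of HBZ, HBA1, HBA2 and AHSP 1 knockdown library came from the clone that was already low when uninduced, c2 for the globins and c1 for AHSP. The value for AHSP was −2.46 without induced c2 and 0.011 without induced c1, and that for HBZ 0.46 without induced c2 and −0.56 without induced c1.

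Across the 6 libraries HBZ followed HBA1 closely (Pearson r = 0.995 of log2 CPM) and HBA2 (r = 0.964), while AHSP did not follow HBZ (r = −0.563). These values describe 6 libraries in 3 clones, so that 1 low clone can set them. Of 9093 genes with a mean of at least 10 CPM, those most like HBZ were GUK1, HBA1, CYTH1, CISH and TGIF1 (r of at least 0.989). GUK1, a guanylate kinase, stood at 170 and 181 CPM in NT, 174 and 187 in c1, and 130 and 141 in c2. CISH is a feedback inhibitor of cytokine signalling. Those most like HBA1 included HBZ, GUK1, LITAF and MCM3AP (r of at least 0.991).

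The genes most like AHSP were ANXA2, TSPYL6, KCNMB3, GRAMD2B and S100A6, each lowest in c1 (r of at least 0.996). S100A6, a calcium-binding protein, stood at 19.6 and 20.7 CPM in NT and 17.4 and 14.9 in c2, and was listed at 0 in both c1 libraries. KCNMB3, a potassium channel subunit, stood at 20.8 and 16.8 CPM in NT, 4.34 and 3.60 in c1, and 20.4 and 16.6 in c2.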

How the data were processed

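Transcript abundance was estimated with Salmon 1.5.2 on GRCh37 (hg19), per the submitters' processing notes. For trimming, annotation and strandedness, nothing is given in the sources used here. Per the file headers, the deposited tables give estimated counts of reads and TPM per transcript. Of 167268 transcripts, 151039 (90.3%) matched GENCODE 29 by identifier, which gave names and GRCh38 positions. Unmatched transcripts held 6.23% to 6.5% of reads and were left out. Estimated counts were summed per gene and rounded. A filter on low counts (edgeR's filterByExpr, minimum count 10, smallest group 2) left 14075 genes. Tests used edgeR 4.0.16 (TMM, quasi-likelihood, Benjamini-Hochberg, threshold 0.05) in R 4.3.3, with DESeq2 1.42.0 and limma 3.58.1 (voom) as alternatives. Log2 CPM used a prior count of 2. The scripts were tested on simulated data.

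The clone pairs the libraries by label. Deviations of induced and uninduced libraries correlated at 0.608 (NT), 0.679 (c1) and 0.741 (c2). The members, lists and tests were chosen with earlier results of these data known. Named genes are all members, list genes called in a comparison, those of smallest p in the blocked fit, and the 5 most like HBZ, HBA1 and AHSP. Some of these genes are not reported here.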

Additional observations from a re-analysis of the deposited data

Results flagged for a closer look

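Among the 4 controls 1 library stood apart in 4 of 9 values examined, where chance gives about 1 in 20. For AHSP the gap of uninduced c1 (2.01 CPM) to the nearest of the other 3 (11.7 to 12.6 CPM) was 0.916 of the whole range. Uninduced c2 stood apart for HBZ (852 CPM against 1752 to 1846, gap 0.905 of the range) and for HBA1 (1230 CPM against 2287 to 2485, gap 0.842). It also stood apart in the ratio of alpha-type to beta-type TPM (0.341 against 0.521 to 0.557, gap 0.834). These values share libraries and are not independent, and 2 of the 4 controls are the same NT clone, so the chance rate, which is for independent samples, does not strictly apply.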

How the results depend on the processing

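The clone pairs the libraries, and was tried as a replicate block. For knockdown against controls edgeR called 0 genes without it, 6 with it and 19 with doxycycline added, and DESeq2 called 22. With the block the log2 fold changes of HBA1, HBA2 and HBQ1 turned to 0.21, 0.35 and 0.13, and to 0.095, 0.22 and 0.10 with doxycycline added.

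For induced against uninduced CDAN1 shRNA clones the count of genes called was 0, and 2 by DESeq2. It was 141 with the block, 69 with the block in DESeq2, 97 in voom, 140 with HBA1 and HBA2 summed, and 286 without the filter. With the block and transcript length as an offset the count was 0. The fits that join the block to another setting were chosen after seeing the data. For the response against NT it was 0, 5 by DESeq2, and 19 with the block. The call counts between clones fell from 3208 to 2103 (c2) and from 3918 to 2379 (c1) with a transcript length offset. AHSP in c2 turned to −0.12 against NT alone.

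Leaving out each library in turn gave 1076 to 3224 genes for c2, lowest without a c2 library, and 2319 to 3245 for c1. The difference in the log2 embryonic to adult ratio ranged from 0.011 to 0.16. For knockdown against controls HBZ ranged from −0.56 to 0.46, HBA1 from −0.49 to 0.30, HBA2 from −0.85 to 0.26, HBQ1 from −0.13 to 0.011 and AHSP from −2.46 to 0.011. For c1 against NT HBA1 ranged from −0.030 to 0.063. For induced against uninduced clones without the block HBZ ranged from −0.31 to 0.91, HBA1 from −0.25 to 0.71, HBA2 from −0.33 to 1.08 and AHSP from −2.06 to 1.51. For the response against NT HBZ ranged from −0.39 to 0.84, HBA1 from −0.37 to 0.60, HBA2 from −0.47 to 0.94 and AHSP from −1.98 to 1.59. Fits of the response without an NT library cannot be made. Where a setting was changed without a value that shows why, the cause was not tested. With 53 to 57 reads, AHSP in c1 rests on the fewest reads of any tested member.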
